A study of Mus musculus with 8 samples.

Results

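The 10 genes described here belong to the autophagy machinery and were followed in quiescent neural stem cells (qNSCs): the cargo receptors Sqstm1 and Nbr1, 5 genes of the ATG8 family (Map1lc3a, Map1lc3b, Gabarap, Gabarapl1 and Gabarapl2), and Ulk1, Becn1 and Wipi1, which act when an autophagosome starts to form. They were chosen by gene symbol in the annotation of the array, and all 10 were found, each with 1 probe, among 16390 distinct named genes and 23473 gene probes. Every one of the 10 probes had a value on all 8 arrays, so that none of them was lost to the filter that left 20473 probes for testing. After 24 h with bafilomycin A (BafA), Sqstm1 was 1.88-fold higher than in control qNSCs, Gabarap 1.38-fold and Nbr1 1.31-fold, and none of the 10 passed the test as lower. Under quantile normalization 2 were higher, Gabarap being lost, and 2 lower, Map1lc3a and Gabarapl1. Of all 20473 probes, 3115 were higher and 3175 lower under that scaling. After 4 h none of the 10 passed the test in either direction.

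In autophagy, a membrane sheet, the phagophore, closes around cytoplasm to form an autophagosome, which then fuses with a lysosome, where the contents are degraded. The small ubiquitin-like proteins of the ATG8 family (the LC3 and GABARAP proteins) are joined to a lipid of that membrane, and cargo receptors such as p62, the product of Sqstm1, bind ubiquitin-marked cargo on one side and ATG8 proteins on the other. BafA blocks the V-ATPase, the proton pump that acidifies lysosomes, so that receptors and lipid-bound LC3 are known to accumulate as proteins. The arrays measured RNA only and hold nothing on protein level, lipidation or autophagic flux.

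The cells belong to 1 mouse NSC line, which was kept for 3 days in quiescence medium with BMP and then given fresh quiescence medium, either as control or with 20 nM BafA. RNA was collected after 4 h or 24 h, and the 4 groups (control 4 h, BafA 4 h, control 24 h and BafA 24 h) have 2 arrays each. BMP exposure, the induction of quiescence and the change of medium were thus shared by all groups, and each time has its own control. The paper reports more proliferating cells in BafA-treated qNSCs than in control qNSCs. Cell-cycle state may therefore differ between BafA and control at 24 h, and its part in the values below was not tested. Nothing in the sources used here states whether the duplicates were separate cultures, and all p-values below measure the spread between duplicates, which may be technical.

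The median spot on an array was 1.57 to 1.72 times as bright as the blank spots. Values below are normalized signals on a linear scale, with each array scaled to a median of 25 after background correction with an offset of 50, and this offset shrinks fold changes where a probe is dim. A level can be compared between arrays, not between genes, since every probe binds differently. Of 14 neural stem cell markers, 13 had a probe, and 12 of these were above the array median on all 8 arrays, Nr2e1 being the exception. With BafA at 24 h, 4 of these 13 were called higher and 5 lower, where 14.6% of all probes were called higher and 12.8% lower. Among them were Nes, 4.06-fold up (log2 fold change 2.02), Gfap down (-2.12) and Prom1 down (-1.12). The summed deposited signal of the 13 was 53252 to 56684 against 52341 to 58473, and it holds very bright probes such as Vim (up to 25245.9) and Fabp7 (up to 22502.8). For the neuron and neuroblast markers this sum was 873 to 1100 in BafA and 1268 to 2041 in control at 24 h, with 4 of 6 tested members lower and 1 higher. Gap43, the brightest of these (745.3 to 1421.9), was not called (-0.31, limma adjusted p = 0.342). Sums of the oligodendrocyte lineage markers were 122 to 124 against 138 to 156, where Cspg4 was the 1 called of 6 tested (-0.34). Those of endothelial, mural and fibroblast markers were 73.6 to 74.1 against 101.0 to 117.0, where Col1a1 was the 1 called of 7 tested (34.8 to 19.5 in mean normalized signal, -0.83) and the others lay between -0.13 and 0.04. The microglia markers summed to 106.0 to 116.0 against 97.1 to 118.0 with 0 of 6 tested called, and Itgam had no value on any array. In such bulk RNA, fewer cells of a type and less RNA per cell cannot be told apart. The part that these shifts have in the values of the 10 genes was not tested. Scanner gain differed on 2 arrays, control 4h replicate 1 and control 24h replicate 1, from the gain on the other 6. Bright probes also moved as a class: the median log2 fold change of the 1090 probes with a mean signal over 500 was 0.184 with BafA at 24 h and 0.0464 at 4 h, and close to 0 (0.011 and -0.00327) after quantile normalization. Sqstm1, Gabarap, Map1lc3a, Map1lc3b and Gabarapl1 are among these bright probes, and each of their values has to be read beside that shift.

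The reference promoter table of RefSeq (GRCm38.p6) holds windows for 8 of the 10 genes, 9 windows in all, from 250 bases before to 50 after a transcript start. The stretches before the start of the 3 genes that were higher after 24 h of BafA are shown here because these 3 share that call, 5′ to 3′ with CpG in capitals. Their levels did not follow 1 pattern, since over the 8 arrays the Pearson r of Sqstm1 was 0.64 with Gabarap and 0.75 with Nbr1, and that of Gabarap with Nbr1 was 0.96. For Map1lc3b, 30 bases around the only motif match in the 9 windows are shown, with the match in capitals.
Sqstm1 (chr11:50210821-50211070, minus strand): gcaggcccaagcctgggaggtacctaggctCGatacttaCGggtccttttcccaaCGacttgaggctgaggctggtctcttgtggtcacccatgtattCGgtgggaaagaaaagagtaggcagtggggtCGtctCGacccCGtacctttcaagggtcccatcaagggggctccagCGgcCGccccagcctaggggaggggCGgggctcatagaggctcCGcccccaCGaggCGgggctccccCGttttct
Gabarap (chr11:69991120-69991369, plus strand): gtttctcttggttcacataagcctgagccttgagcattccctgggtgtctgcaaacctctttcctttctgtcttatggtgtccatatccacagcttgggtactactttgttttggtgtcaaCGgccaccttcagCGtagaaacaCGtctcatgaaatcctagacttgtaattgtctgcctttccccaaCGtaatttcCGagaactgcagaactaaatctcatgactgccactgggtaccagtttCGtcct
Nbr1 (chr11:101551857-101552106, plus strand): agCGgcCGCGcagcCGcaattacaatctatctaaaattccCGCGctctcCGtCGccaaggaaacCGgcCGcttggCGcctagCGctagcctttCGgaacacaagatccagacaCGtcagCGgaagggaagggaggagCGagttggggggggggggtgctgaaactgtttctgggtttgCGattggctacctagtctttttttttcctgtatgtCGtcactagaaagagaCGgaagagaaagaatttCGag
Map1lc3b (chr8:121590432-121590461, plus strand): gcgagtcaccTGACTCGGCtgcggactgag
The 3 stretches are unlike in composition, with 14 CpG in Sqstm1, 6 in Gabarap and 20 in Nbr1, and a GC content of 63.2%, 46.4% and 54.4%. Both strands of the 9 windows were searched for CACGTG, the E-box read by TFEB and its relatives, which 7.15% of all 32851 windows hold, and for its longer form TCACGTGA (0.974%), every match of which also holds CACGTG. Also searched were TGACNNNGC, the core of the antioxidant response element read by NRF2 (12.4%), TTGCATCA, an element read by ATF4 (0.895%), and TGTTTAC, read by FOXO factors (3.65%). TGACNNNGC occurred once, starting at base 5 of the Map1lc3b transcript, and the other 4 motifs in none of the 9 windows. These letters say nothing on whether a factor binds there or elsewhere.

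The question of the first comparison was how BafA changes the cargo receptors. Sqstm1, on chromosome 11, codes for p62, which carries ubiquitinated cargo and is itself degraded with it. Its normalized signal was 1155 and 985 on the control arrays at 4 h, 1317 and 1421 with BafA at 4 h, 1050 and 1017 on the control arrays at 24 h, and 1791 and 2101 with BafA at 24 h. Both BafA arrays of each time were above both of its control arrays, and the 2 control groups overlapped. The log2 fold change was 0.36 at 4 h (95% confidence interval 0.05 to 0.66, limma adjusted p = 0.343) and 0.91 at 24 h (0.60 to 1.21, adjusted p = 3.38e-05). At 24 h it stayed past the threshold in 19 of 20 processing alternatives, with a log2 fold change from 0.65 to 1.02 in these. The alternative that lost it, subtraction of the signal around each spot, gave 0.71 with an adjusted p of 0.914. In the authors' deposited values the 24 h ratio was 1.93, so that Sqstm1 falls just short of the 2-fold limit used in the study's methods, and none of the 10 genes passed that limit at either time. In order of level, both control groups came lowest, BafA at 4 h next and BafA at 24 h highest, and among neighbours in this order only the step from 4 h to 24 h of BafA passed the test. That step depended on the scaling, at -0.06 under quantile normalization (limma adjusted p = 0.596) and 0.03 under cyclic loess (0.832). Quantile normalization also put control at 24 h below control at 4 h (-0.39, 0.00614).

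Nbr1, also on chromosome 11, codes for the second ubiquitin-binding receptor, a relative of p62. It measured 77.9 and 79.2 in control at 4 h, 81.2 and 94.1 with BafA at 4 h, 104.0 and 98.8 in control at 24 h, and 128.0 and 137.0 with BafA at 24 h. The 4 groups did not overlap and rose in the order control 4 h, BafA 4 h, control 24 h, BafA 24 h. Its log2 fold change was 0.15 at 4 h (-0.12 to 0.43, adjusted p = 0.875) and 0.39 at 24 h (0.12 to 0.66, limma adjusted p = 0.0298). The call at 24 h depended on the arrays: it was lost without control 24h replicate 1 (0.0568), control 24h replicate 2 (0.121) or BafA 24h replicate 2 (0.134), with the 6 arrays of 1 scan setting (0.0819) and with the 4 arrays of 24 h alone (0.083), these being adjusted p-values. Its size varied little, between 0.34 and 0.46 in the 19 alternatives other than the local background, so that direction was stable and the side of the threshold was not.

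**Figure D1:**
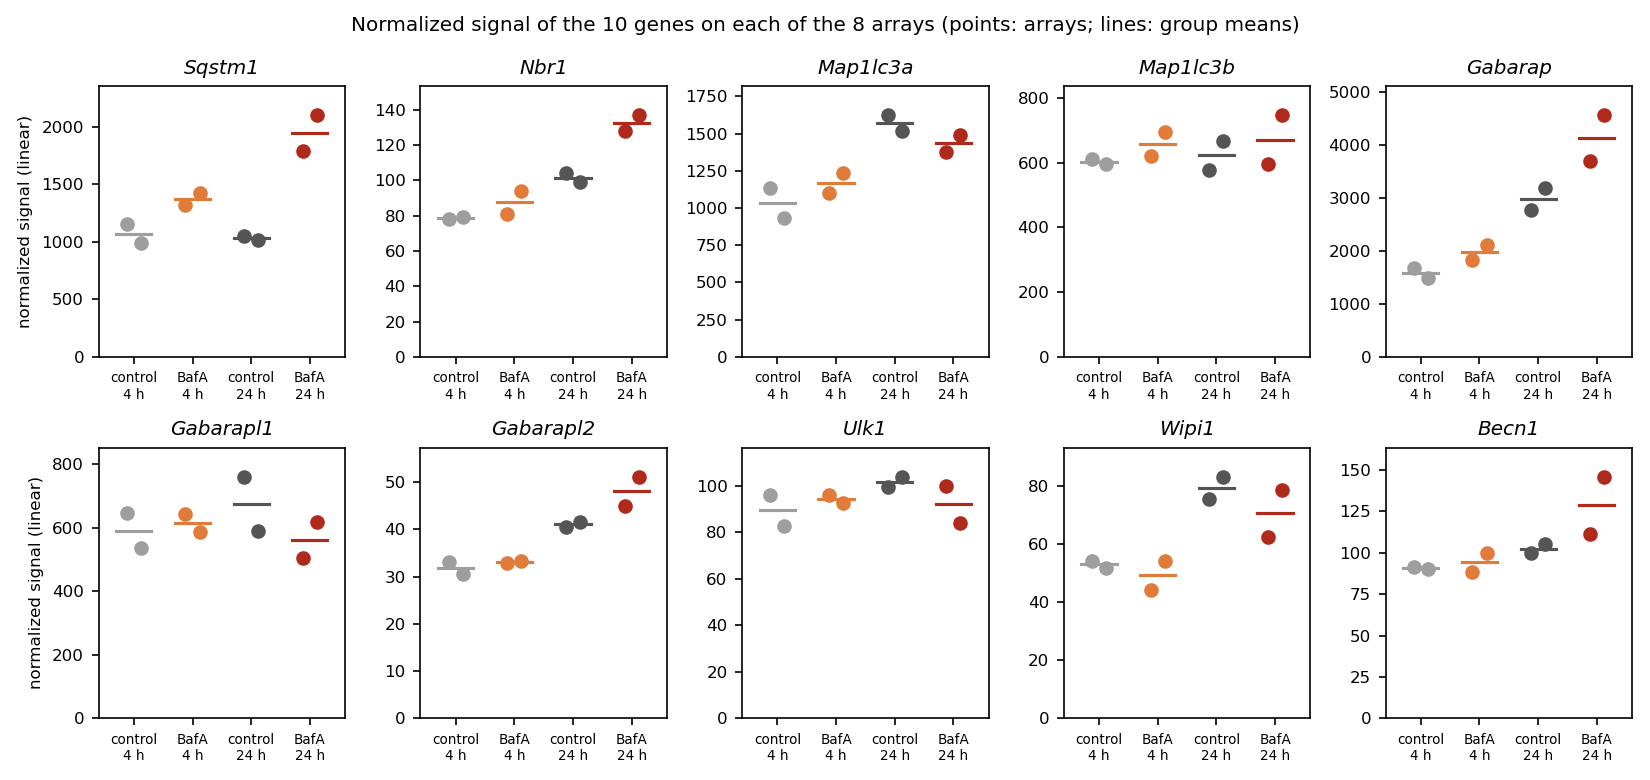
Normalized signal (linear scale, vertical axes from 0) of each gene on the 8 arrays. Points are single arrays (n = 2 per group) and lines are group means. Sqstm1 runs from 985 to 1155 on the 4 control arrays and reaches 1791 and 2101 with BafA at 24 h, whereas Gabarapl1 and Ulk1 overlap between control and BafA at both times.

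In the LC3 branch of the ATG8 family neither gene passed the test at either time. Map1lc3a, on chromosome 2, and Map1lc3b, on chromosome 8, code for LC3A and LC3B, of which LC3B is the form mostly used to mark autophagosomes. Map1lc3a measured 1137 and 933 in control and 1098 and 1237 with BafA at 4 h, and 1625 and 1518 in control and 1378 and 1494 with BafA at 24 h. Groups overlapped at 4 h, and at 24 h both BafA arrays lay below both control arrays. Its log2 fold change was 0.18 (-0.13 to 0.49, adjusted p = 0.869) at 4 h and -0.13 (-0.44 to 0.18, limma adjusted p = 0.615) at 24 h. Here the way of normalization mattered, since quantile normalization gave -0.32 (adjusted p = 0.0296) and cyclic loess -0.30 (0.0353), both past the threshold as lower.

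Map1lc3b measured 611 and 595 in control and 621 and 695 with BafA at 4 h, and 578 and 667 in control and 595 and 747 with BafA at 24 h. The BafA arrays were higher at 4 h without overlap, and the groups overlapped at 24 h. Neither difference passed, at 0.12 (-0.22 to 0.46, limma adjusted p = 0.956) and 0.10 (-0.24 to 0.44, adjusted p = 0.745) on the log2 scale. The upper bounds leave room for a 1.38-fold rise at 4 h and a 1.36-fold rise at 24 h, and the sign at 24 h turned to -0.05 under quantile normalization.

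The GABARAP branch, whose proteins are linked to the late steps of autophagosome formation and closure, held the widest range of behaviour. Gabarap, on chromosome 11, measured 1668 and 1480 in control and 1818 and 2118 with BafA at 4 h, and 2775 and 3183 in control and 3696 and 4561 with BafA at 24 h. As with Nbr1, no 2 groups overlapped. On the log2 scale the steps of Gabarap between the times, 0.92 in control and 1.07 with BafA, were larger than those between BafA and control. Its log2 fold change with BafA was 0.32 at 4 h (0.03 to 0.61, adjusted p = 0.393) and 0.47 at 24 h (0.18 to 0.75, limma adjusted p = 0.0128). The call at 24 h was lost under quantile normalization (0.31, adjusted p = 0.0666) and cyclic loess (0.26, 0.0794), which remove the shift of bright probes, and after local background subtraction (1.52, 0.588). It was also lost without control 24h replicate 1 (0.37, adjusted p = 0.106), without BafA 24h replicate 2 (0.31, 0.197) and with the 6 arrays of 1 scan setting (0.37, 0.064).

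Gabarapl1, on chromosome 6, is the close relative of Gabarap that is often named GEC1. It measured 645 and 536 in control and 643 and 586 with BafA at 4 h, and 761 and 591 in control and 503 and 617 with BafA at 24 h. Both times overlapped. The log2 fold change of 0.06 at 4 h (-0.30 to 0.42, adjusted p = 0.993) was followed by -0.27 at 24 h (-0.63 to 0.09, limma adjusted p = 0.30). Under quantile normalization the latter was -0.41 and passed as lower (adjusted p = 0.0412), so that the direction opposite to Gabarap held under both scalings, while the call did not. Local background subtraction turned it to 0.12.

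Gabarapl2, on chromosome 8, codes for GATE-16, and its probe is dim, at 2.1 to 3.72 times the blank spots. It measured 33.1 and 30.5 in control and 32.8 and 33.3 with BafA at 4 h, and 40.6 and 41.6 in control and 44.9 and 51.2 with BafA at 24 h. The groups overlapped at 4 h and were apart at 24 h. The log2 fold changes of 0.06 (-0.13 to 0.24, adjusted p = 0.974) and 0.22 (0.04 to 0.41, limma adjusted p = 0.0737) did not pass, and the latter was called once BafA 24h replicate 1 was left out (0.32, 0.0386) or the replicate number was a block (0.0432).

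Among the genes that start an autophagosome, BafA moved none past the threshold in the processing as reported. Ulk1, on chromosome 5, codes for the kinase that nutrient and energy signals control. It measured 96.0 and 82.8 in control and 96.1 and 92.5 with BafA at 4 h, and 99.4 and 104.0 in control and 100 and 84.0 with BafA at 24 h. All of these overlapped within a time. Its log2 fold change was 0.08 (-0.20 to 0.36, adjusted p = 0.978) at 4 h and -0.15 (-0.43 to 0.13, limma adjusted p = 0.493) at 24 h.

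Becn1, on chromosome 11, codes for the scaffold of the lipid kinase complex that marks the phagophore. It measured 91.2 and 90.3 in control and 88.4 and 99.9 with BafA at 4 h, and 100 and 105.0 in control and 111.0 and 146.0 with BafA at 24 h. Only the 24 h groups were apart, and 1 BafA array carried most of that step. The log2 fold change of 0.32 at 24 h (0.02 to 0.61, limma adjusted p = 0.115) became 0.12 (0.653) without BafA 24h replicate 2 and 0.51 (0.0196) without BafA 24h replicate 1. The authors' deposited values gave 0.38 at 24 h, which lay just past the threshold (limma adjusted p = 0.05 as rounded). At 4 h the log2 fold change as reported was 0.05 (-0.25 to 0.35, adjusted p = 0.993).

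Wipi1, on chromosome 11, codes for a protein that binds the lipid made by the Becn1 complex. It measured 54.3 and 52.0 in control and 44.4 and 54.4 with BafA at 4 h, and 75.8 and 83.4 in control and 62.5 and 78.8 with BafA at 24 h. The groups overlapped at both times. Its log2 fold change was -0.11 (-0.38 to 0.15, adjusted p = 0.939) at 4 h and -0.18 (-0.44 to 0.08, limma adjusted p = 0.359) at 24 h.

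**Figure D2:**
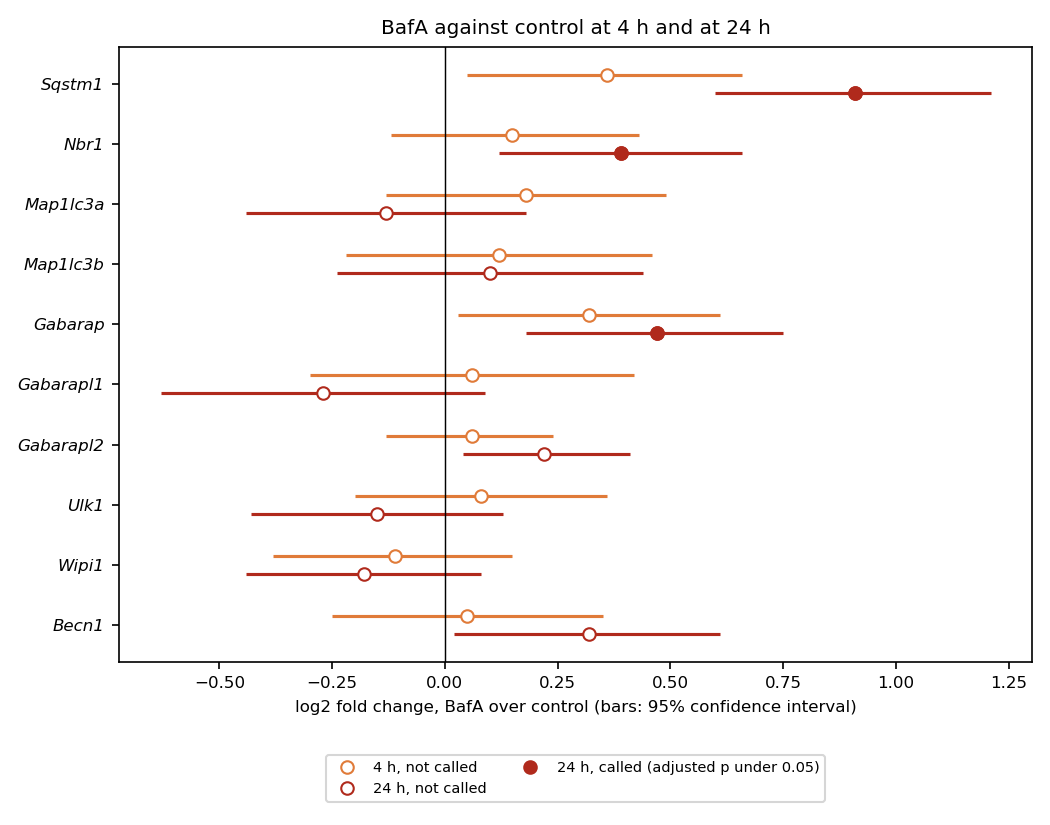
Log2 fold change of BafA over control for each gene at 4 h and at 24 h (horizontal axis), with 95% confidence intervals from limma as bars and filled points for an adjusted p under the threshold. Filled points are those of Sqstm1 (0.91), Gabarap (0.47) and Nbr1 (0.39), all at 24 h.

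Over the 10 genes, 0 were called at 4 h by limma, where 1.13% of all probes tested were called higher and 1.09% lower. Sqstm1 and Gabarap, 2 of the 10, passed the same threshold before adjustment, as did 2027 of all 20473 probes. The BafA and control arrays of 4 h did not overlap for 4 genes with BafA higher (21.8% of all probes) and for 0 with BafA lower (16.3%). At 24 h, 3 of the 10 were called higher against 14.6% of all probes, and 0 lower against 12.8%. Under quantile normalization the split was 2 higher (Sqstm1 and Nbr1) and 2 lower (Map1lc3a and Gabarapl1), and under cyclic loess 2 higher and 1 lower (Map1lc3a). The split of all 20473 probes moved too, to 3115 higher and 3175 lower under quantile normalization and 3097 and 3299 under cyclic loess. Groups of 24 h were apart for 5 genes with BafA higher (32.6% of all probes) and for 1, Map1lc3a, with BafA lower (24.5%). The median log2 fold change of the 10 genes was 0.10 at 4 h and 0.16 at 24 h, beside 0.01 and 0.02 over all probes. With 10 genes, a count of 3 does not set the group apart from the 14.6% background, and no test of the group was made.

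Whether the effect of BafA differed between the times was tested as the difference of both effects in 1 model. It was past the threshold for none of the 10 genes, against 14.7% of all probes in either direction. Before adjustment, the p was under the threshold for Sqstm1 alone, 1 of the 10, and for 5005 of all 20473 probes. Sqstm1 gave a difference of 0.55 (0.12 to 0.98, limma adjusted p = 0.0848). This passed in 5 alternatives, among them the authors' deposited values (0.57, adjusted p = 0.0217) and cyclic loess (0.42, 0.039), and also without BafA 24h replicate 1 (0.66, 0.0465). For the other 9 genes the difference lay between -0.33 (Gabarapl1) and 0.27 (Becn1).

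The genes also moved between the 2 times of collection, with and without BafA. In control qNSCs, 5 of the 10 were higher at 24 h than at 4 h (18.8% of all probes) and 0 lower (14.2%): Gabarap by 0.92 on the log2 scale (limma adjusted p = 1.27e-05), Map1lc3a by 0.61 (0.00246), Wipi1 by 0.58 (0.000913), Nbr1 by 0.37 (0.0344) and Gabarapl2 by 0.37 (0.00262). Under quantile normalization these became 4 higher and 1 lower, where 3662 of all probes were higher and 3920 lower. With BafA, 6 were higher at 24 h (21.4% of all probes) and 0 lower (15.9%): Gabarap by 1.07 (limma adjusted p = 1.09e-06), Nbr1 by 0.60 (0.000706), Gabarapl2 by 0.54 (4.02e-05), Wipi1 by 0.51 (0.00225), Sqstm1 by 0.50 (0.00842) and Becn1 by 0.44 (0.0171). Quantile normalization turned the latter into 5 higher and 2 lower, as did cyclic loess. Of all probes, 4263 were higher and 4209 lower under quantile normalization, and 4115 and 4285 under cyclic loess. The comparisons share arrays with those of BafA against control and are not separate evidence. Bright probes had a median of 0.34 between the times in control and 0.463 with BafA, and 0.0224 and 0.0126 after quantile normalization, so that the bright genes depend on the scaling. Gabarap stayed higher after quantile normalization (0.50, adjusted p = 0.00627, in control and 0.52, 0.00424, with BafA). Map1lc3a in control did not (0.26, 0.0638), Sqstm1 turned lower in control (-0.39, 0.00614) and had no step left with BafA (-0.06, 0.596), and Map1lc3b turned from 0.02 to -0.38 (0.0228) with BafA. Gabarapl1 with BafA went from -0.14 to -0.53 and passed as lower (0.00943), and cyclic loess gave -0.50 (0.0129). For the dimmer Nbr1, Wipi1, Gabarapl2 and Becn1 these calls held under quantile normalization, with 0.30, 0.55 and 0.35 for the first 3 in control and 0.51, 0.46, 0.51 and 0.33 for all 4 with BafA.

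Single arrays decided some calls between the times. In control, Nbr1 was lost without any 1 of the 4 arrays (highest adjusted p 0.153 among them, without control 4h replicate 1), and Map1lc3a without control 4h replicate 2 (0.47, adjusted p = 0.06). With BafA, Sqstm1, Wipi1 and Becn1 were lost without BafA 4h replicate 1 (adjusted p = 0.0899, 0.0795 and 0.163) and without BafA 24h replicate 2 (0.0878, 0.0857 and 0.261).

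**Figure D3:**
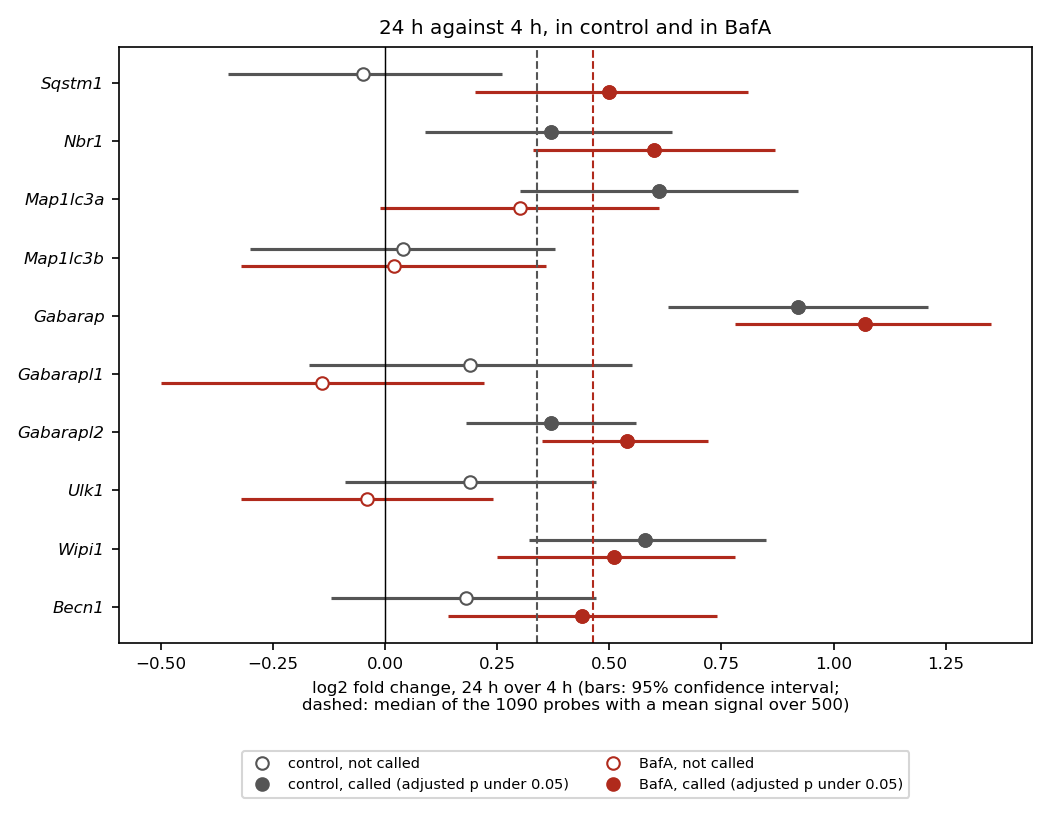
Log2 fold change of 24 h over 4 h (horizontal axis) in control and in BafA, with 95% confidence intervals as bars. Dashed lines mark the median of the 1090 bright probes (0.34 in control, 0.463 with BafA), and Gabarap (0.92 and 1.07) lies to the right of both lines while Sqstm1 in control (-0.05) lies to the left.

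**Figure D4:**
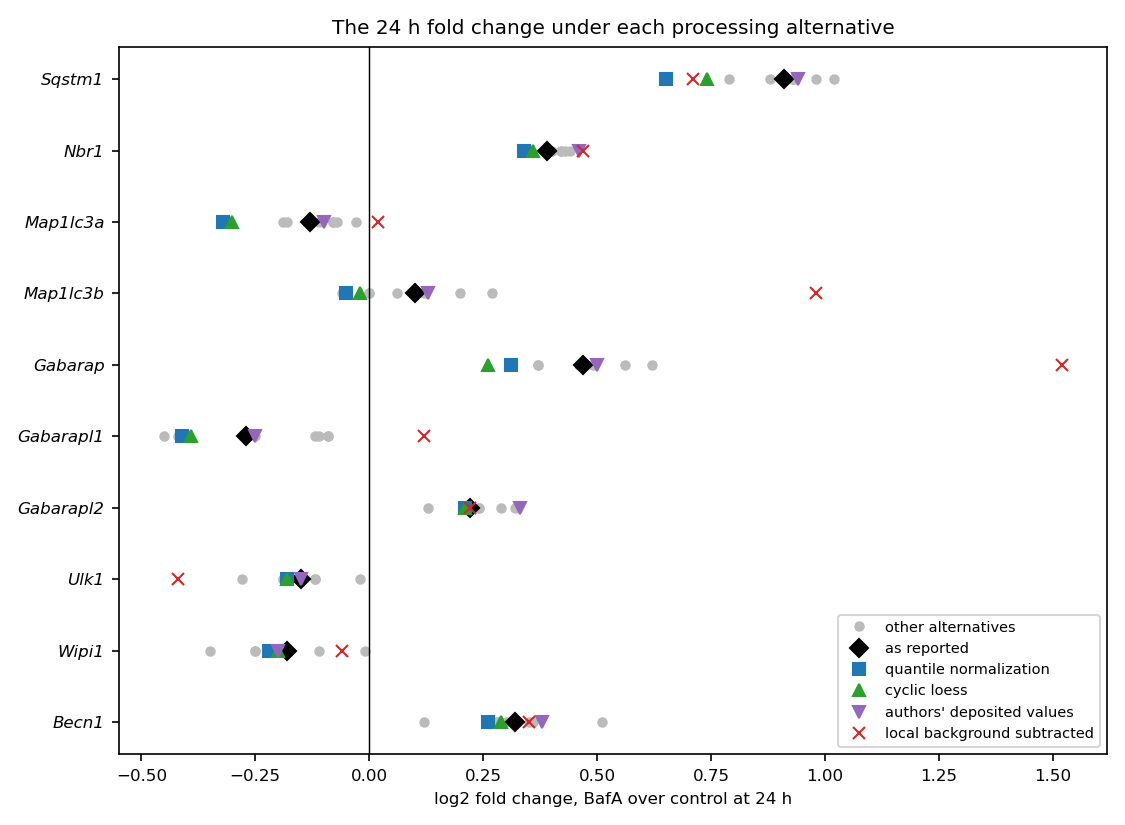
Log2 fold change of BafA over control at 24 h (horizontal axis) as reported and under each alternative of the processing, 1 point per alternative. Sqstm1 stays between 0.65 and 1.02 in each, and local background subtraction moves Gabarap to 1.52 and Map1lc3b to 0.98.

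Around these 10 genes, 72 other genes of the pathway were followed in 7 lists, of which 68 were tested (Bnip3, Nrbf2, Tecpr1 and Rab7 were not analysed here). At 4 h none of them was called. At 24 h, 10 were higher and 6 lower. These are 14.7% and 8.82% of the 68, beside 14.6% and 12.8% of all probes, so that as a group they do not stand above the background. Several of the called genes are dim, among them Bnip3l, Retreg1, Optn, Atg16l2, Tfeb and Tfe3, with signals under 50 on every array. With only probes of a mean signal over 50 tested, 6 were called, 4 higher and 2 lower. Of 18 other receptors tested, 1 was higher and 3 lower, with a list median of 0.07. Bnip3l, the mitochondrial receptor NIX, rose from 34.1 and 34.4 to 43.3 and 45.2 (log2 fold change 0.37 ± 0.08 SE, limma adjusted p = 0.00075). Fundc1, another mitochondrial receptor, was lower with BafA, at 165 and 181 against 320 and 237 in control (-0.67 ± 0.16, limma adjusted p = 0.00253). It had been 153 and 147 in control and 165 and 178 with BafA at 4 h. The call was lost without control 24h replicate 1 (-0.45, adjusted p = 0.0977) and with the 6 arrays of 1 scan setting (-0.45, 0.148). Retreg1, 1 of several receptors for endoplasmic reticulum in the list, fell from 37.8 and 29.1 to 22.9 and 23.7 (-0.51, 0.000327). Optn, which binds ubiquitin like p62, fell by 0.25 (0.0271), and that call held in 9 of 18 alternatives.

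None of the 4 ULK1 partners tested was called (median 0.09). Of 6 Becn1 and VPS34 partners, 1 was higher and 0 lower (median 0.02). It was Uvrag, a Becn1 partner in the late, endosomal form of the complex, which went from 50.1 and 44.6 to 80.5 and 84.6 (0.80 ± 0.10, limma adjusted p = 5.72e-07). Of 10 genes of phagophore growth and the WIPI family, 2 were higher and 0 lower (median 0.10). These were Vmp1, an endoplasmic reticulum protein needed for phagophore growth (232 and 298 to 457 and 506, 0.87 ± 0.23, limma adjusted p = 0.00495), and the lipid transfer protein gene Atg2b (38.5 and 36.2 to 49.7 and 54.3, 0.48, 0.000368). Vmp1 was lost without BafA 24h replicate 2 (adjusted p = 0.0793), under quantile normalization (0.0551) and with no trend in eBayes (0.0852).

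Among the 11 conjugation enzymes that join ATG8 proteins to lipid, 2 were higher and 2 lower (median 0.05). Atg10, the E2-like enzyme that joins ATG12 to ATG5, fell from 102.0 and 84.2 to 45.1 and 53.4 (-0.92 ± 0.11, limma adjusted p = 4.05e-07), and it had been 33.2 and 33.7 in control at 4 h. Of the 2 homologs of the conjugation scaffold, Atg16l1 was higher by 0.41 (0.00226) and Atg16l2 lower by 0.45 (0.000221). Control arrays of Atg16l1 went from 48.0 and 47.7 at 4 h to 36.1 and 38.1 at 24 h. With BafA at 24 h it measured 48.6 and 49.7. Local background subtraction moved Atg16l1 to 0.0 (adjusted p = 0.999) and Atg16l2 to -0.08 (0.92). Atg3, the E2-like enzyme for ATG8 itself, was higher by 0.17 (0.0135), with a dim signal of 14.3 to 17.7 where the array median is 25. The call was lost with no trend in eBayes (adjusted p = 0.0682), without control 24h replicate 2 (0.16) and without BafA 24h replicate 2 (0.14). Local background subtraction turned it to -0.11 (adjusted p = 0.914). Of 8 genes of fusion with the lysosome, 2 were higher and 0 lower (median 0.10). Plekhm1, an adaptor between ATG8 proteins and the fusion machinery, went from 45.1 and 45.7 to 78.5 and 74.9 (0.76 ± 0.12, limma adjusted p = 3.31e-05), and the SNARE gene Snap29 from 103.0 and 87.5 to 129.0 and 149.0 (0.54, 0.00309).

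**Figure D5:**
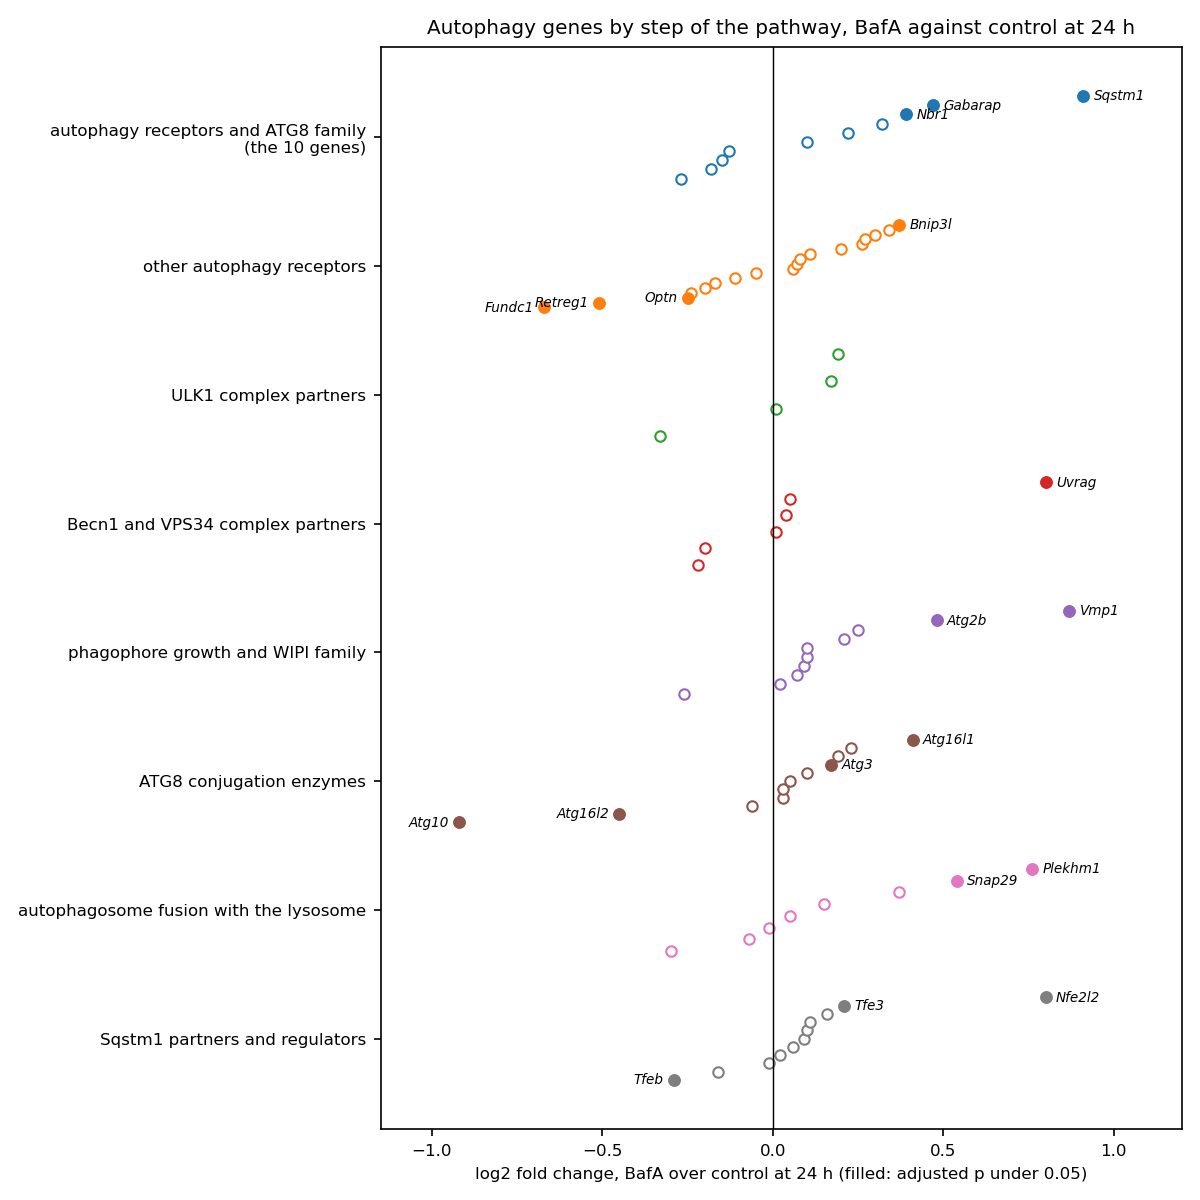
Log2 fold change of BafA over control at 24 h (horizontal axis) for the 10 genes and the 68 other genes tested, by step of the pathway. Filled, named points have a limma adjusted p under the threshold, from Atg10 (-0.92) to Sqstm1 (0.91).

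Of 11 partners and regulators of Sqstm1, 2 were higher and 1 lower at 24 h (median 0.09). Nfe2l2 codes for NRF2, whose inhibitor KEAP1 is bound by p62. It measured 368 and 313 in control and 387 and 447 with BafA at 4 h, and 316 and 316 in control and 503 and 602 with BafA at 24 h. Like Sqstm1, it was higher in BafA without overlap at both times and passed the test at 24 h and not at 4 h (0.80 ± 0.17, limma adjusted p = 0.000574, against 0.30, 0.642, at 4 h). Keap1 was not called (0.16, 0.496). Tfeb, the regulator of lysosomal genes, fell from 28.3 and 28.0 to 23.4 and 22.6 (-0.29, 0.00487), and its relative Tfe3 was higher by 0.21 (0.0441). The call of Tfeb was lost without BafA 24h replicate 2 (adjusted p = 0.0688) and that of Tfe3 held in 8 of 18 alternatives. The genes whose log2 signal followed that of Sqstm1 most closely over the 8 arrays were Nfe2l2 (Pearson r = 0.991), Sestd1 (0.991) and Armcx4 (0.99), and 84 of 14669 named genes had an r over 0.95. The 8 arrays fall into 4 groups and share scaling and scan settings, so that these r values describe likeness of pattern over 8 arrays and carry no test.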

How the data were processed

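RNA from the 8 samples was labelled with Cy5 and hybridized to 1-colour oligonucleotide arrays (3D-Gene, Toray) by the authors. They deposited each scanner output, with the intensity of 27455 spots and of their surroundings, not normalized, and 1 table of intensity values, from which they had subtracted the level of the 2736 blank spots before scaling each array to a median of 25.

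Files were parsed in Python 3.11.15, and spot signals were corrected in R 4.3.3 by limma 3.58.1 (normexp on all spots, offset 50), scaled to a median of 25 and converted to log2. The 20473 gene probes above the blank level (mean plus 2 SD) on all 8 arrays were fitted with 1 coefficient per group and eBayes with a trend (4 residual degrees of freedom and a prior worth 19.3). The Benjamini-Hochberg adjustment ran over all of these probes, with a threshold of 0.05. All 4 groups shared 1 estimate of the spread. An exact permutation test of 2 against 2 arrays cannot go below a two-sided p of 0.33 and was not used. In data simulated for the 4 h comparison over 20473 probes, 40% of changes of 1.25-fold, 66% of 1.5-fold and 88% of 2-fold were called, and 6 unchanged probes. These rates pool the simulated probes and were not worked out by brightness. In the 4 h comparison the standard error was 0.05 for the dim Atg3, 0.15 for Sqstm1 and 0.17 for Gabarapl1. The rates therefore cannot be carried over to the bright genes, and they do not show how large a change in these would be missed at 4 h.

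The platform annotation names 16631 of 23473 gene probes with 1 symbol, 0 with several, and leaves 6842 unnamed, and 3947 symbols were updated through RefSeq synonyms. For a gene with several probes the one of highest mean signal was used. Named are all 10 genes, every called gene of a pathway list at 4 h, up to 4 called genes per list at 24 h by size of change, and the 3 genes most correlated with Sqstm1. Calcoco1 was named after its values were seen. The 10 genes and the lists were chosen with earlier results of these data known. Alternatives were the authors' deposited values, quantile normalization, local background, an offset of 10, no trend, a mean signal over 50, subsets of arrays, blocks for replicate number and scan setting, and leaving out each array. Cyclic loess and a block with crossed replicate numbers were added after seeing the data. Promoter windows and gene names are from RefSeq (GRCm38.p6).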

Additional observations from a re-analysis of the deposited data

Results flagged for a closer look

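For 7 of the 68 other pathway genes tested, the effect of BafA at 24 h differed from that at 4 h by the limma test of the difference itself (4 upward and 3 downward), and for none of the 10 genes. The 7 are 10.3% of the 68, below the 14.7% of all probes that pass the same test. All values are differences of log2 fold changes, 24 h minus 4 h. Atg10 gave -0.86 (adjusted p = 0.000271), with -0.05 at 4 h and -0.92 at 24 h, and stayed past the threshold in all 18 alternatives other than local background. Fundc1 gave -0.87 (0.0101), from 0.20 to -0.67, and was lost without control 4h replicate 2, without control 24h replicate 1 and with the arrays of 1 scan setting. Calcoco1, a receptor that is not called at either time by itself, gave -0.45 (0.018), from 0.21 to -0.24, in 12 of 17 alternatives. Plekhm1 gave 0.71 (0.00558), from 0.05 to 0.76, and was lost without control 4h replicate 1, without BafA 4h replicate 1 and with no trend in eBayes. Uvrag gave 0.53 (0.00956), from 0.28 to 0.80, and was lost without BafA 4h replicate 1 (highest adjusted p 0.0581). Atg2b gave 0.51 (0.0106), from -0.03 to 0.48, and was lost without control 4h replicate 1 and without BafA 24h replicate 2. Bnip3l gave 0.43 (0.00842), from -0.06 to 0.37, and was lost without BafA 4h replicate 2. Subtraction of the local background left none of the 7 past the threshold and turned Fundc1 to 1.09 (0.996).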

How the results depend on the processing

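Over 50 values of the 10 genes in 5 comparisons and 21 alternatives, 906 of 965 kept direction and side of the threshold, 17 passed it, 38 lost it and 4 reversed. The reversals are Gabarap in control over time after local background subtraction (-0.33), Sqstm1 (-0.06) and Map1lc3b (-0.38) in BafA over time after quantile normalization, and Map1lc3b after cyclic loess (-0.35). Local background subtraction also turned Fundc1 (0.99, and 1.09 for the difference), Atg3 (-0.11) and Tfe3 (-0.05). The cause was not tested.

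Of the 10 genes, 3 were called at 24 h as reported. It was 0 after local background subtraction and by the 2-fold rule on deposited values, 1 with the 6 arrays of 1 scan setting, and 1 to 5 with 1 array left out. Quantile normalization changed the split at 24 h from 3 higher and 0 lower to 2 and 2, with Map1lc3a (-0.32, adjusted p = 0.0296) and Gabarapl1 (-0.41, 0.0412) lower, and cyclic loess to 2 and 1. Over all probes, quantile normalization changed it from 2984 and 2611 to 3115 and 3175, and cyclic loess to 3097 and 3299. For the difference the count of the 10 genes was 0 as reported, 1 with deposited values, an offset of 10, cyclic loess or the crossed replicate block, and 0 to 1 with 1 array left out. Over time, local background subtraction left 0 in control and 0 in BafA, and leaving out 1 array gave 3 to 5 and 3 to 6.

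Of the other pathway genes, 16 were called at 24 h, 6 with a mean signal over 50 and 0 with local background subtracted. At 4 h it was 0, but 2 with only the arrays of 4 h and 1 with the 6 arrays of 1 scan setting. Of all probes, 456 were called at 4 h, against 0 (local background), 132 (no trend), 191 (mean signal over 50, which tests 7243 probes), 1034 (only the arrays of 4 h), 265 (crossed replicate block) and 229 to 883 with 1 array left out. Local background subtraction left 187 of 5595 at 24 h, 4 of 3006 for the difference, 8 of 6765 for control over time and 242 of 7637 for BafA over time, and a mean signal over 50 left 2950, 1612, 3539 and 4160.

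Between control and BafA groups, the deviations of same-numbered arrays correlated between -0.223 and 0.0495, which gives no sign of pairing by replicate number. Between the times of the same treatment, the correlation was 0.285 for control and 0.316 for BafA. In the control groups the replicate number also coincides with the scan setting. Whether the arrays of a treatment are paired by number was not tested. With the replicate block 4 of the 10 genes were called at 24 h, Gabarapl2 being added (adjusted p = 0.0432), and 568 probes at 4 h. With the numbers of the BafA groups crossed, 3 of the 10 genes were called at 24 h and 7 in BafA over time, against 6 as reported. Limits are the 2 arrays per group, probes near the blank level such as Gabarapl2, Wipi1 and several of the called pathway genes, and the scaling of bright probes.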
